A study of Mus musculus with 12 samples.

Results

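The genes described here are 41 mouse genes of the integrated stress response and of amino acid supply: 7 transcription factors, 7 feedback and stress effectors, 5 amino acid transporters, 10 enzymes of amino acid and one-carbon metabolism and 12 cytosolic aminoacyl-tRNA synthetases. They were taken as a named list, out of 52661 genes in the deposited expression table, and were proposed with earlier results of the same data known, as genes said to rise on knockdown of Puf60 and again on its induction. The cells were N2A (Neuro-2A), a mouse neuroblastoma line. A pair of stable Flp-In rtTA3 lines carried a doxycycline-inducible, siRNA-resistant Puf60 cDNA with an N-terminal 3xFlag tag, which included exon 5 in the pEx5 line and lacked it in the mEx5 line. In the induction groups cells received Puf60 siRNA at 15 nM and, from 24 h, doxycycline at 2 µg/ml for 24 h. The knockdown groups received the same siRNA and fresh medium with no doxycycline, and the control groups received a non-targeting siRNA with no doxycycline. All cells carried the cDNA and were harvested 48 h after transfection, and each of the 6 groups held 2 libraries, A and B, given as biological duplicates. No group combined doxycycline with the non-targeting siRNA, so doxycycline and the Puf60 cDNA cannot be told apart, and with 1 stable line per cDNA neither can exon 5 and the line.

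The integrated stress response begins when a kinase, such as PERK, GCN2, PKR or HRI, phosphorylates the translation initiation factor eIF2. General protein synthesis then drops while the Atf4 mRNA is translated more, and ATF4, a basic leucine zipper factor, raises genes for amino acid uptake, amino acid synthesis and tRNA charging together with feedback factors such as CHOP (Ddit3) and GADD34 (Ppp1r15a). Puf60 is a poly(U)-binding splicing factor that acts in the recognition of 3′ splice sites.

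Levels per library were junction reads, the reads that span an exon-exon junction, summed per gene and scaled by library size (CPM). They totalled 22908930 to 41494994 reads per library. Of the 41 genes, 37 reached a mean of 20 junction reads over the 12 libraries and were tested, among 10363 genes in all. Cebpg and Vldlr fell under that limit, and Cebpb and Phgdh were not analysed on junction reads here; these 4 are described from the authors' deposited table alone. Puf60 itself stood at 617 and 631 CPM in pEx5 induction, 58.3 and 64.4 CPM in pEx5 knockdown and 321 and 296 CPM in pEx5 control libraries. The mEx5 values were 625 and 579 CPM on induction, 75.5 and 72.0 CPM on knockdown and 303 and 305 CPM in controls, so that the induced level was above control in both lines. In the authors' deposited table, 12 sympathetic neuroblastoma markers summed to 1130, 1100 and 1250 RPKM in pEx5 induction, knockdown and control, and to 973, 999 and 1160 RPKM in the same groups of mEx5. The 5 glial markers summed to 3.74, 4.52 and 3.06 RPKM in pEx5 induction, knockdown and control, and to 3.22, 4.62 and 2.98 RPKM in mEx5, with 3 of the 5 under 0.1 RPKM in each group of the authors' deposited table. Fibroblast markers summed to 0.11 to 0.66 RPKM and immune markers to 0.39 to 0.78 RPKM there. The glial sum was thus highest in the knockdown group of each line, and the neuroblastoma sum was below control in the knockdown and induction groups of each line. The part of this in the results was not tested. In bulk RNA, fewer cells that express a gene and less RNA per cell cannot be told apart.

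Knockdown of Puf60 moved most of these genes upward. In both lines together, 26 of the 37 were called higher than control and 2 lower (limma, Benjamini-Hochberg adjusted p under 0.05), where 25.4% of all genes tested were called higher and 23.2% lower. Their median log2 change was 0.25, with 34 of 37 above 0, against a median of 0.02 over all genes tested, of which 52.5% lay above 0. At an unadjusted p under 0.05 were 30 of the 37, against 5723 of the 10363 genes tested. Trib3, Slc7a11, Nupr1 and Ddit3 had the highest log2 changes, between 0.79 and 1.01, and the transporter subunit Slc3a2 and the serine synthesis enzyme Psat1 were the 2 called lower. In the authors' deposited table Psat1 was lower in both lines, while Slc3a2 had log2 fold changes of 0.02 in pEx5 and 0.13 in mEx5.

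Induction of the Puf60 cDNA did not bring most of these genes back down. Compared with knockdown, 20 of the 37 were called higher and 0 lower by limma, where 17.3% of all genes tested were called higher and 15.6% lower. At an unadjusted p under 0.05 were 25 of the 37, against 4534 of the 10363 genes tested. With voom precision weights 23 were called higher and 1 lower, and the same counts came from a prior variance with an abundance trend. The 20 include Ddit3 and Slc7a11, which were no longer called without introns that touch an exon of changed inclusion (limma adjusted p of 0.051 and 0.052). That alternative was chosen after seeing the data. Cth rose most, by 0.85 on the log2 scale, and the median log2 change of the 37 was 0.15 against -0.01 over all genes tested. These comparisons share the knockdown libraries, which enter them with opposite sign. Set against control, the induction libraries had 34 of the 37 called higher and 0 lower (34 at an unadjusted p under 0.05, and 34 higher and 0 lower with voom weights), where 17.2% of all genes were called higher and 15.5% lower. Of the 10363 genes tested, 4563 had an unadjusted p under 0.05 there. Slc3a2, Psat1 and the methionyl-tRNA synthetase Mars were the 3 not called, with log2 changes of 0.06, -0.02 and 0.04.

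**Figure D1:**
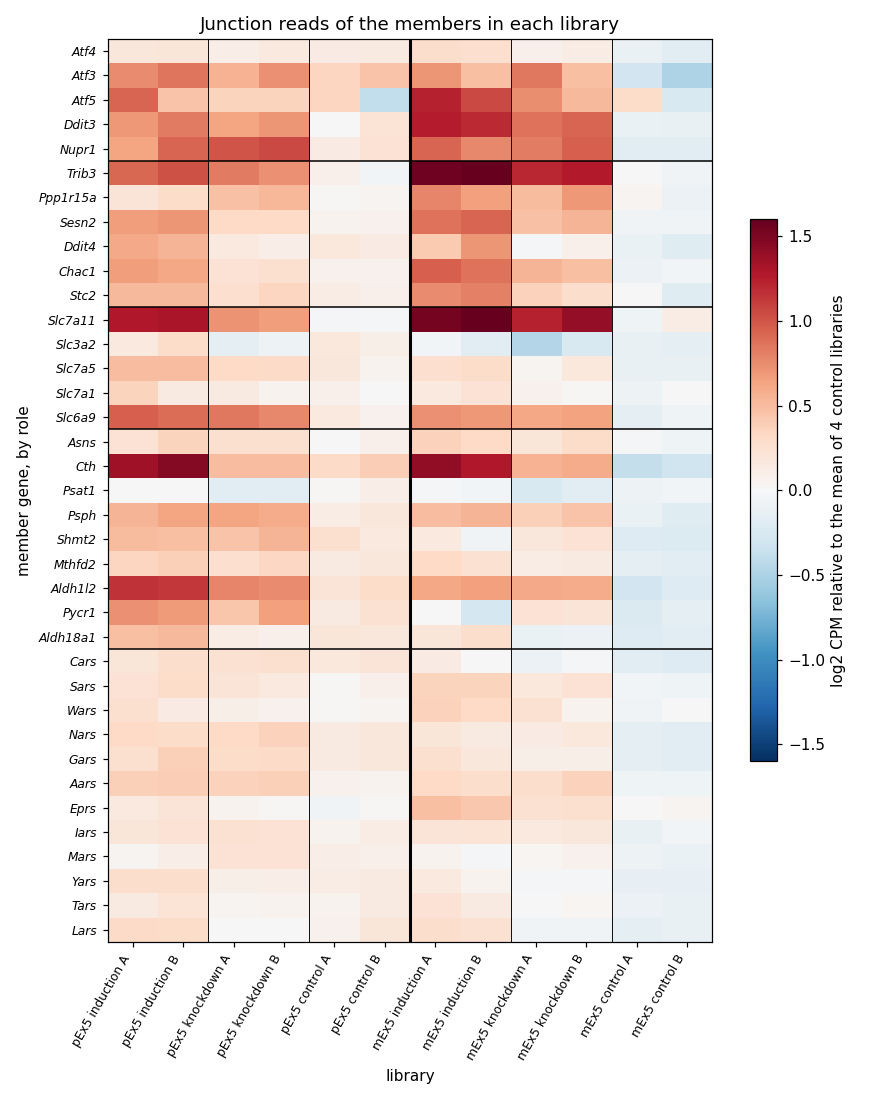
Heat map of the 37 tested genes (rows, grouped by role) in the 12 libraries (columns), coloured by log2 CPM of junction reads relative to the mean of the 4 control libraries. Slc7a11, Trib3 and Cth are deepest in the induction libraries of both lines, whereas Psat1 and Slc3a2 are blue in the knockdown libraries.

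**Figure D2:**
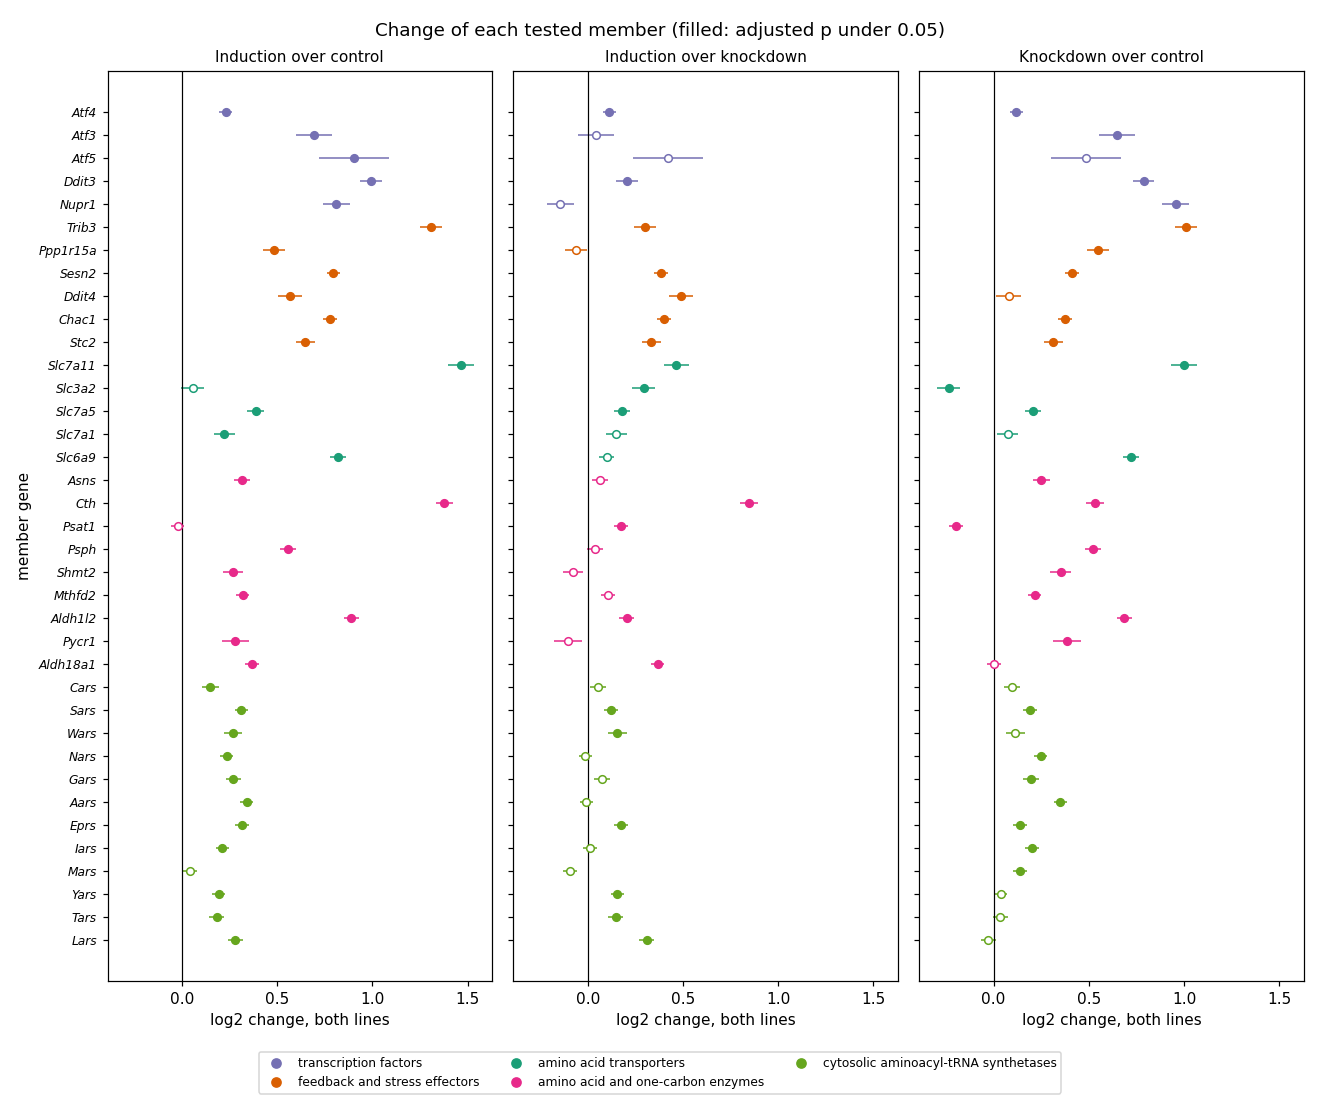
Log2 change of each tested gene with its standard error (horizontal bars) for induction over control, induction over knockdown and knockdown over control, both lines together, with filled points at an adjusted p under 0.05. The points of induction over control lie furthest right: 34 are filled there, against 20 for induction over knockdown and 28 for knockdown over control.

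ATF4 binds, as a dimer with C/EBP family partners, the composite C/EBP-ATF response element, whose core was searched as TGATGNAA on both strands in RefSeq promoter windows of GRCm38.p6 that run from 250 bases before to 50 bases after a transcription start. Of the 33 genes with a window, 13 held at least 1 match in any of their windows (39.4%), against 1219 of 27025 genes in the table (4.51%). The genes were listed as ATF4-type targets and synthetases, so a share above that of all genes follows in part from the choice of list. It is not a result of these libraries. Ddit3, Slc6a9, Ppp1r15a and Psph, all called higher on knockdown, held no match. The cyclic AMP response element TGACGTCA, which was searched the same way, was found in 1 of the 33 (3.03%), Ppp1r15a, against 549 of 27025 genes (2.03%), and no window of the 33 held both motifs. The following windows belong to the 6 genes with the highest knockdown changes among those called and holding the first core. They were picked for holding it and show only where it lies in them. Capitals mark the core or its reverse complement, and each window is printed 5′ to 3′ on the strand of the gene. They are Trib3 (chr2:152344011-152344310, minus strand), Slc7a11 (chr3:50443564-50443863, minus), Nupr1 (chr7:126625421-126625720, minus), Atf3 (chr1:191183284-191183583, minus), Pycr1 (chr11:120643699-120643998, minus) and Chac1 (chr2:119350992-119351291, plus).
Trib3: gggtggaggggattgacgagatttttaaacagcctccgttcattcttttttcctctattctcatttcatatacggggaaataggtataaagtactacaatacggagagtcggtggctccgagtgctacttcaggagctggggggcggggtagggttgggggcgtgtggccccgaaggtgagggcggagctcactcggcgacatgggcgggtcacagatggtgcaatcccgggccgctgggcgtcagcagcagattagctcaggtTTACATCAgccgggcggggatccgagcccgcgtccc
Slc7a11: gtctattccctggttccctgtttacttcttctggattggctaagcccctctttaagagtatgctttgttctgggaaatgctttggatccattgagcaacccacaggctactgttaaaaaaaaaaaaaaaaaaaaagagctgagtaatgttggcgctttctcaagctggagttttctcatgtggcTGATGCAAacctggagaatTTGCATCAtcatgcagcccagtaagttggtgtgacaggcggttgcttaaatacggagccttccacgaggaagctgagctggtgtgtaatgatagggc
Nupr1: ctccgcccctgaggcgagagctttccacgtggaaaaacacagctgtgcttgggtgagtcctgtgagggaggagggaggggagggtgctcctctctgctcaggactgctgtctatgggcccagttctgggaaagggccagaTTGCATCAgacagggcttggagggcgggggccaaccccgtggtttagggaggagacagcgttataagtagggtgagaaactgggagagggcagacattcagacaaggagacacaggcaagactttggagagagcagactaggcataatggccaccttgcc
Atf3: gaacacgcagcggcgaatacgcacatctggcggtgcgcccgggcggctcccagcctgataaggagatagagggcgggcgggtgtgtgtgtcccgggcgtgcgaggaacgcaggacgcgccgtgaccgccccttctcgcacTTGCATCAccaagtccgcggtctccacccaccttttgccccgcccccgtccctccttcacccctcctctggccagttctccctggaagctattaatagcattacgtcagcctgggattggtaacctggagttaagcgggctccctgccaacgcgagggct
Pycr1: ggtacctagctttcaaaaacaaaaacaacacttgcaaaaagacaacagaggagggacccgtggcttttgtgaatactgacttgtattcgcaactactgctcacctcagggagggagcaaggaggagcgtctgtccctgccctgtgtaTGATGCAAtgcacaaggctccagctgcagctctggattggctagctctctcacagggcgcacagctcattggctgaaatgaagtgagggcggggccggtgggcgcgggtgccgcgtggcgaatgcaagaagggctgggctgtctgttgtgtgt
Chac1: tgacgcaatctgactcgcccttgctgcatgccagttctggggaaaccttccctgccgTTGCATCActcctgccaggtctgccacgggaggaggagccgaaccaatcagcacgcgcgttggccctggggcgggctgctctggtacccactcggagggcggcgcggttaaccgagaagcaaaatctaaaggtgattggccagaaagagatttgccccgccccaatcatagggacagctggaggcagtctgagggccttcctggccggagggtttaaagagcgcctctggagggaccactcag
Relative to the start base, the first capital letter lies at 14 in Trib3, at -66 and -47 in Slc7a11, at -110 in both Nupr1 and Atf3, at -103 in Pycr1 and at -193 in Chac1. Slc7a11 is the only 1 of these 6 with a pair of cores, in opposite orientation. The letters describe the window, and factor binding was not measured.

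Among the transcription factors, 4 of the 5 tested were called higher on knockdown, with a median log2 change of 0.65, and 2 were called higher on induction, with a median of 0.11. Atf4, the central factor of the pathway, is regulated mainly at translation, and its mRNA moved little in pEx5 and more in mEx5. It measured 563 and 571 CPM in pEx5 induction, 538 and 553 CPM in pEx5 knockdown and 545 and 552 CPM in pEx5 control libraries. In the mEx5 line it measured 606 and 602 CPM on induction, 530 and 543 CPM on knockdown and 464 and 442 CPM in controls. In pEx5 the knockdown and control libraries overlap and induction lies just above them, while in mEx5 the 3 groups do not overlap and control is lowest. In both lines together Atf4 rose by 0.12 ± 0.03 (log2 change ± SE) on knockdown (limma adjusted p = 0.020) and by 0.11 ± 0.03 on induction (adjusted p = 0.033). The call on knockdown was lost without pEx5 knockdown B, mEx5 control B or mEx5 knockdown B (adjusted p of 0.074, 0.080 and 0.060), and that on induction without any 1 of the 8 libraries it compares (adjusted p of 0.054 to 0.109).

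Ddit3 encodes CHOP, a C/EBP-related factor that acts downstream of ATF4 and promotes cell death under lasting stress. Its junction reads measured 81.6 and 89.8 CPM in pEx5 induction, 78.2 and 82.6 CPM in pEx5 knockdown and 50.6 and 58.6 CPM in pEx5 control libraries. In mEx5 the values were 121 and 115 CPM on induction, 92.2 and 96.3 CPM on knockdown and 46.9 and 46.4 CPM in controls. Every knockdown library lay above every control library in both lines, and induction overlapped knockdown in pEx5 only. Ddit3 rose by 0.79 ± 0.06 on knockdown (limma adjusted p = 1.63e-05) and by 0.21 ± 0.06 on induction (adjusted p = 0.024). The induction call did not hold without pEx5 knockdown A, pEx5 induction B, mEx5 knockdown A or mEx5 induction A (adjusted p of 0.064 to 0.079). It also rested on junctions around a Ddit3 exon whose inclusion changed: 2 of the 3 introns counted touch that exon. Without those introns, an alternative chosen after seeing the data, Ddit3 rose by 1.39 ± 0.09 on knockdown and its induction value was -0.27 ± 0.09 (limma adjusted p = 0.051), the opposite sign. Whole-gene values in the authors' deposited table gave a log2 fold change of -0.15 in pEx5 (FDR 0.109) and 0.06 in mEx5 (FDR 0.656) on induction, and of 0.88 and 1.22 on knockdown.

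Nupr1, a small stress-induced chromatin-associated protein, stood at 56.1 and 68.8 CPM in pEx5 induction, 72.8 and 74.9 CPM in pEx5 knockdown and 39.6 and 42.6 CPM in pEx5 control libraries. The mEx5 libraries gave 68.7 and 61.5 CPM on induction, 63.7 and 70.0 CPM on knockdown and 31.8 and 32.0 CPM in controls. Knockdown and induction both lay above control in each line. Nupr1 rose by 0.96 ± 0.07 on knockdown (limma adjusted p = 1.94e-05), and its value on induction was -0.14 ± 0.07 (adjusted p = 0.158; without pEx5 induction B it was -0.22 with an adjusted p of 0.035). Atf3, a stress-induced partner of CHOP, ranged from 8.82 to 11.5 CPM on induction, from 8.83 to 11.4 CPM on knockdown and from 4.51 to 8.65 CPM in controls over both lines. It rose by 0.65 ± 0.09 on knockdown (limma adjusted p = 6.72e-04), and its value on induction was 0.04 ± 0.09 (adjusted p = 0.752). Atf5, a factor related to ATF4, had few junction reads, at 2.75 to 8.44 CPM, and its log2 changes of 0.49 ± 0.18 on knockdown and 0.42 ± 0.18 on induction missed the threshold (limma adjusted p of 0.056 and 0.113). In the authors' deposited table, which counts the whole transcript, Atf5 had FDR under 0.05 in all 4 comparisons, with log2 fold changes of 0.27 and 0.65 on knockdown and 0.62 and 0.45 on induction in pEx5 and mEx5.

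The C/EBP partners of ATF4 were seen only in the authors' deposited table. There, Cebpg had log2 fold changes of 0.22 and 0.36 on knockdown and 0.47 and 0.22 on induction in pEx5 and mEx5, all at FDR under 0.05, with 36.9, 28.0 and 19.8 RPKM in pEx5 induction, knockdown and control. Cebpb was low, at 0.6 to 1.94 RPKM over the 6 groups in the authors' deposited table, with log2 fold changes of 1.27 and 0.95 on knockdown (FDR 0.002 and 0.017) and -0.17 and -0.07 on induction (FDR 0.869 and 0.962).

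Of the feedback and stress effectors, 5 of the 6 tested were called higher on knockdown and 5 on induction, with median log2 changes of 0.39 and 0.36. Trib3, a pseudokinase that restrains ATF4 and AKT, was highest in mEx5 induction. It measured 54.2 and 58.5 CPM in pEx5 induction, 51.1 and 47.9 CPM in pEx5 knockdown and 30.4 and 28.0 CPM in pEx5 control libraries. The mEx5 line gave 84.4 and 97.0 CPM on induction, 66.4 and 69.2 CPM on knockdown and 29.0 and 27.8 CPM in controls. The 3 groups separate in the same order in both lines, without overlap. Trib3 rose by 1.01 ± 0.06 on knockdown (limma adjusted p = 5.68e-06) and by 0.30 ± 0.06 on induction (adjusted p = 0.005). On induction its log2 fold change in the authors' deposited table was 0.095 in pEx5 (FDR 0.360) and 0.363 in mEx5 (FDR 4.96e-07). Its promoter window above carries the core just after the start base.

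Ppp1r15a encodes GADD34, the phosphatase subunit that dephosphorylates eIF2 and so ends the response. It stood at 19.4 and 20.7 CPM in pEx5 induction, 23.2 and 24.3 CPM in pEx5 knockdown and 17.0 and 17.3 CPM in pEx5 control libraries. In mEx5 the values were 29.0 and 26.5 CPM on induction, 23.8 and 27.3 CPM on knockdown and 17.3 and 15.7 CPM in controls. Induction lay below knockdown in pEx5 and overlapped it in mEx5. Ppp1r15a rose by 0.55 ± 0.06 on knockdown (limma adjusted p = 1.22e-04), and its value on induction was -0.06 ± 0.06 (adjusted p = 0.458).

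Ddit4 (REDD1), an inhibitor of the growth kinase complex mTORC1, took a different course. It measured 170 and 163 CPM in pEx5 induction, 125 and 120.0 CPM in pEx5 knockdown and 126 and 122 CPM in pEx5 control libraries. The mEx5 line gave 149 and 182 CPM on induction, 110 and 118 CPM on knockdown and 104 and 97.6 CPM in controls. Only the induction libraries stood apart in pEx5, and in mEx5 they stood furthest from the others. Ddit4 had a log2 change of 0.08 ± 0.06 on knockdown (limma adjusted p = 0.340) and rose by 0.49 ± 0.06 on induction (adjusted p = 8.31e-04).

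Chac1, a γ-glutamylcyclotransferase that degrades glutathione, rose in both steps. It stood at 76.3 and 73.3 CPM in pEx5 induction, 56.0 and 57.0 CPM in pEx5 knockdown and 50.4 and 50.0 CPM in pEx5 control libraries. In mEx5 it stood at 92.6 and 87.3 CPM on induction, 69.6 and 66.9 CPM on knockdown and 44.8 and 46.5 CPM in controls. The order of the groups was the same in both lines with no overlap. Chac1 rose by 0.38 ± 0.04 on knockdown (limma adjusted p = 8.6e-05) and by 0.40 ± 0.04 on induction (adjusted p = 1.53e-04). Sesn2, a sestrin that senses leucine and inhibits mTORC1, rose by 0.41 ± 0.03 and 0.39 ± 0.03 in the same comparisons, and Stc2, a secreted stanniocalcin, by 0.31 ± 0.05 and 0.33 ± 0.05. Vldlr, the very low density lipoprotein receptor, was at 0 to 0.01 RPKM in the authors' deposited table and carries no comparison.

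**Figure D3:**
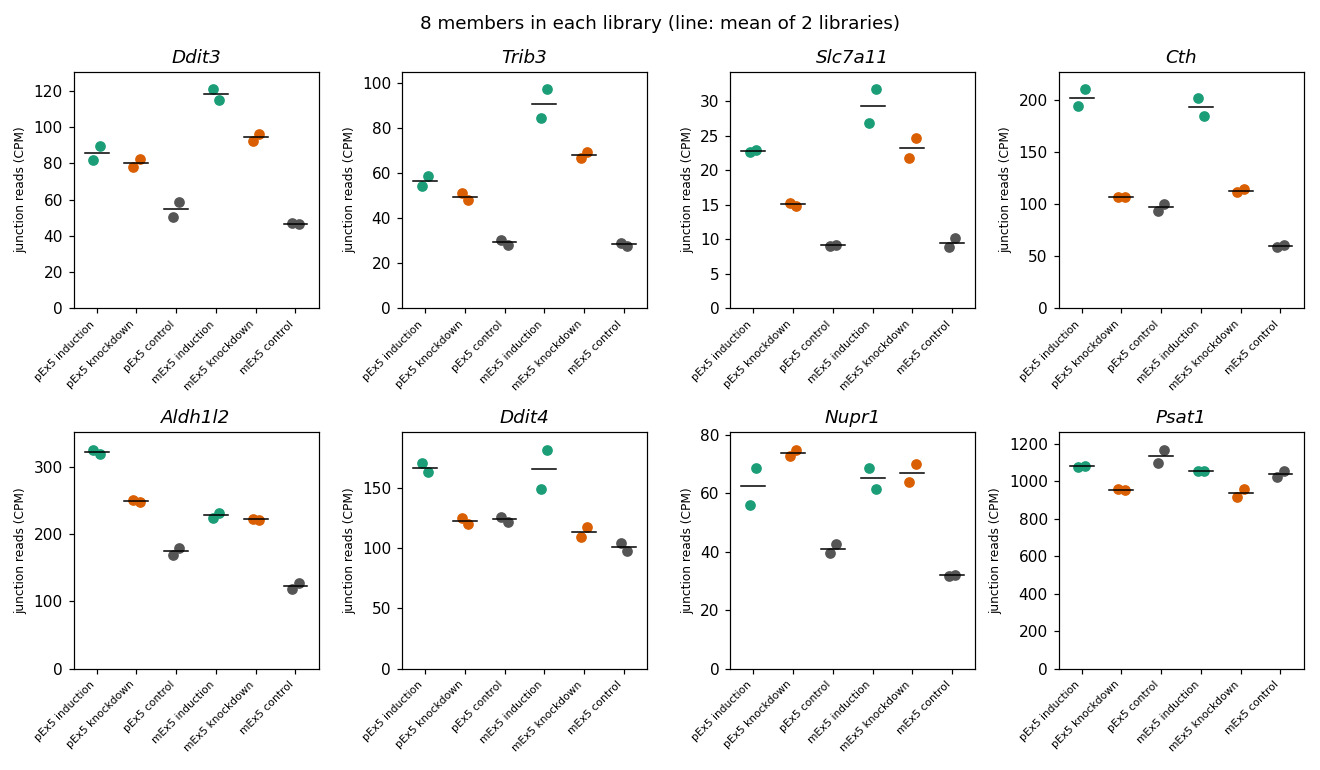
Junction reads (CPM, axes from 0) of 8 genes in each library, with the mean of the 2 libraries of a group as a line, for induction, knockdown and control of pEx5 and then of mEx5. Trib3 and Slc7a11 are highest in mEx5 induction, at 84.4 and 97.0 CPM and at 26.9 and 31.8 CPM, Aldh1l2 in pEx5 induction, at 325 and 320 CPM, and Psat1 is lowest in knockdown.

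The transporters did not move as 1 block. On knockdown 3 of the 5 were called higher and 1 lower (median log2 change 0.21), and on induction 3 were called higher and 0 lower (median 0.18, with 5 of 5 at an unadjusted p under 0.05). Slc7a11, the cystine-glutamate antiporter that supplies cysteine for glutathione, measured 22.7 and 23.0 CPM in pEx5 induction, 15.3 and 14.8 CPM in pEx5 knockdown and 9.07 and 9.16 CPM in pEx5 control libraries. In mEx5 it measured 26.9 and 31.8 CPM on induction, 21.8 and 24.6 CPM on knockdown and 8.9 and 10.1 CPM in controls. Groups did not overlap within either line. Slc7a11 rose by 1.00 ± 0.07 on knockdown (limma adjusted p = 1.28e-05) and by 0.47 ± 0.07 on induction (adjusted p = 0.001). Without the 2 of its 11 introns that touch an exon with changed inclusion, an alternative chosen after seeing the data, the log2 changes were 1.18 ± 0.08 on knockdown and 0.24 ± 0.08 on induction, and the second was no longer called (limma adjusted p = 0.052). On induction its log2 fold change in the authors' deposited table was 0.27 in pEx5 (FDR 0.008) and 0.15 in mEx5 (FDR 0.197).

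Slc3a2, the heavy chain that carries Slc7a11 and Slc7a5 to the membrane, went the other way on knockdown. It stood at 459 and 503 CPM in pEx5 induction, 369 and 389 CPM in pEx5 knockdown and 460.3 and 438 CPM in pEx5 control libraries. In mEx5 it stood at 399.5 and 362 CPM on induction, 298 and 347 CPM on knockdown and 379.5 and 373 CPM in controls. Knockdown was lowest in both lines. Slc3a2 fell by 0.24 ± 0.06 on knockdown (limma, log2 change -0.24, adjusted p = 0.013) and rose by 0.29 ± 0.06 on induction (adjusted p = 0.008). In the authors' deposited table its knockdown log2 fold changes were 0.02 and 0.13 (FDR 0.863 and 0.123), while its RPKM there were 338.4 in knockdown and 366.3 in control of pEx5, and 326.4 in knockdown and 332.2 in control of mEx5.

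Slc6a9, the glycine transporter GlyT1, measured 125 and 119.6 CPM in pEx5 induction, 115 and 109.8 CPM in pEx5 knockdown and 71.5 and 67.5 CPM in pEx5 control libraries. The mEx5 line gave 107 and 104 CPM on induction, 98.7 and 101 CPM on knockdown and 57.8 and 61.2 CPM in controls. Knockdown and induction lay close together and well above control. Slc6a9 rose by 0.72 ± 0.04 on knockdown (limma adjusted p = 5.48e-06), and its value on induction was 0.10 ± 0.04 (adjusted p = 0.096). Slc7a5 (LAT1), which exchanges large neutral amino acids, rose by 0.21 ± 0.04 and 0.18 ± 0.04 in these comparisons, whereas the cationic amino acid transporter Slc7a1 had log2 changes of 0.07 ± 0.06 and 0.15 ± 0.06 that missed the threshold (limma adjusted p of 0.300 and 0.069).

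Among the enzymes, 7 of the 9 tested were called higher and 1 lower on knockdown (median log2 change 0.35), and 4 higher and 0 lower on induction (median 0.11, with 5 at an unadjusted p under 0.05). Asns, which makes asparagine and is a classical ATF4 target, measured 2083 and 2267 CPM in pEx5 induction, 2120 and 2125 CPM in pEx5 knockdown and 1793 and 1888 CPM in pEx5 control libraries. In mEx5 it measured 2291 and 2227 CPM on induction, 2040 and 2183 CPM on knockdown and 1743 and 1696 CPM in controls. Induction overlapped knockdown in pEx5 and lay just above it in mEx5. Asns rose by 0.25 ± 0.04 on knockdown (limma adjusted p = 0.002), and its value on induction was 0.07 ± 0.04 (adjusted p = 0.276).

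Cth, cystathionine γ-lyase, which makes cysteine, rose more on induction than any other of the 37. It stood at 194 and 210 CPM in pEx5 induction, 107 and 107 CPM in pEx5 knockdown and 93.5 and 99.9 CPM in pEx5 control libraries. In mEx5 it stood at 202 and 185 CPM on induction, 111 and 114 CPM on knockdown and 58.4 and 60.8 CPM in controls. Controls of the lines differ, while the knockdown libraries of both lines reach similar values and so do the induction libraries. Cth rose by 0.53 ± 0.05 on knockdown (limma adjusted p = 4.48e-05), by 0.85 ± 0.05 on induction (adjusted p = 1.8e-05) and by 1.38 ± 0.05 in induction over control (adjusted p = 2.4e-06). Within lines its knockdown log2 change was 0.14 ± 0.07 in pEx5 (limma adjusted p = 0.133) and 0.92 ± 0.07 in mEx5 (adjusted p = 6.3e-05).

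The serine pathway split. Psat1, its transaminase, measured 1075 and 1083 CPM in pEx5 induction, 956 and 951 CPM in pEx5 knockdown and 1095 and 1168 CPM in pEx5 control libraries. In mEx5 it measured 1055 and 1052 CPM on induction, 916 and 957 CPM on knockdown and 1020 and 1052 CPM in controls. Knockdown libraries were the lowest of each line. Psat1 fell by 0.20 ± 0.04 on knockdown (limma, log2 change -0.20, adjusted p = 0.002) and rose by 0.17 ± 0.04 on induction (adjusted p = 0.008). Psph, the phosphatase that completes serine synthesis, rose by 0.52 ± 0.04 on knockdown (limma adjusted p = 2.84e-05), and its value on induction was 0.04 ± 0.04. Phgdh, the dehydrogenase that opens the pathway, had log2 fold changes of 0.12 in pEx5 (FDR 0.209) and 0.22 in mEx5 (FDR 0.009) on knockdown in the authors' deposited table, and of 0.11 and 0.08 on induction (FDR 0.351 and 0.483).

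In mitochondrial one-carbon metabolism, Aldh1l2, which oxidises 10-formyltetrahydrofolate, rose most. It measured 325 and 320 CPM in pEx5 induction, 251 and 248 CPM in pEx5 knockdown and 169 and 179 CPM in pEx5 control libraries. In mEx5 it measured 224 and 231 CPM on induction, 222 and 221 CPM on knockdown and 119 and 127 CPM in controls. Induction lay above knockdown by a wide margin in pEx5 and by a narrow one in mEx5. Aldh1l2 rose by 0.69 ± 0.04 on knockdown (limma adjusted p = 5.48e-06) and by 0.20 ± 0.04 on induction (adjusted p = 0.005). Shmt2, the mitochondrial serine hydroxymethyltransferase, rose by 0.35 ± 0.05 and Mthfd2, the mitochondrial methylenetetrahydrofolate dehydrogenase, by 0.22 ± 0.04 on knockdown, with induction values of -0.08 ± 0.05 and 0.11 ± 0.04 (limma adjusted p of 0.291 and 0.054).

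The enzymes of proline synthesis also split. Aldh18a1, which opens the route from glutamate, stood at 526 and 542 CPM in pEx5 induction, 410.1 and 399 CPM in pEx5 knockdown and 432 and 428 CPM in pEx5 control libraries. In mEx5 it stood at 432 and 459 CPM on induction, 352 and 354 CPM on knockdown and 327 and 336 CPM in controls. Induction stood apart in both lines. Its log2 change was 0.00 ± 0.04 on knockdown (limma adjusted p = 0.990), and it rose by 0.37 ± 0.04 on induction (adjusted p = 1.81e-04). Pycr1, which performs the last step, rose by 0.38 ± 0.07 on knockdown (limma adjusted p = 0.003). On induction Pycr1 was at 62.4 and 60.3 CPM in pEx5, above its knockdown libraries at 51.1 and 59.0 CPM, and at 37.4 and 30.8 CPM in mEx5, below its knockdown libraries at 44.1 and 43.4 CPM.

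The cytosolic aminoacyl-tRNA synthetases, which charge tRNAs with their amino acids, moved by small amounts: 7 of the 12 were called higher on knockdown and 0 lower (median log2 change 0.14, with 8 at an unadjusted p under 0.05), and 6 higher and 0 lower on induction (median 0.10, with 7 at an unadjusted p under 0.05). In induction over control 11 of the 12 were called higher. Aars, the alanyl-tRNA synthetase, measured 1823 and 1831 CPM in pEx5 induction, 1809 and 1821 CPM in pEx5 knockdown and 1471 and 1453 CPM in pEx5 control libraries. In mEx5 it measured 1739 and 1699 CPM on induction, 1697 and 1800 CPM on knockdown and 1338 and 1338 CPM in controls. Knockdown and induction sat at 1 level, above control. Aars rose by 0.35 ± 0.03 on knockdown (limma adjusted p = 7.45e-05), and its value on induction was -0.01 ± 0.03. Nars, for asparagine, followed the same course, with 1098 and 1078 CPM in pEx5 induction, 1094 and 1138 CPM in pEx5 knockdown and 971 and 998 CPM in pEx5 control libraries. In mEx5 Nars had 1003 and 969 CPM on induction, 967 and 989 CPM on knockdown and 796 and 777 CPM in controls, and it rose by 0.25 ± 0.03 on knockdown (limma adjusted p = 5.2e-04).

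Lars, for leucine, behaved like Aldh18a1. It measured 744 and 735 CPM in pEx5 induction, 597 and 603 CPM in pEx5 knockdown and 629 and 690 CPM in pEx5 control libraries. In mEx5 it measured 730.0 and 713 CPM on induction, 578 and 578 CPM on knockdown and 542 and 555 CPM in controls. Induction exceeded both other groups in each line. Lars had a log2 change of -0.03 ± 0.04 on knockdown (limma adjusted p = 0.563) and rose by 0.31 ± 0.04 on induction (adjusted p = 6.23e-04). Eprs, which charges glutamate and proline tRNAs, had 1757 and 1818 CPM in pEx5 induction, 1638 and 1594 CPM in pEx5 knockdown and 1513 and 1598 CPM in pEx5 control libraries. In mEx5 Eprs had 2211 and 2124 CPM on induction, 1870 and 1882 CPM on knockdown and 1577 and 1634 CPM in controls. It rose by 0.14 ± 0.04 on knockdown (limma adjusted p = 0.014; 0.052 without pEx5 knockdown A and 0.053 without mEx5 control A) and by 0.18 ± 0.04 on induction (adjusted p = 0.008). Gars, Iars and Mars, for glycine, isoleucine and methionine, were called higher on knockdown only, at log2 changes of 0.20, 0.20 and 0.14. Sars, for serine, was called higher in both, at 0.19 on knockdown and 0.12 on induction. Tars, Wars and Yars, for threonine, tryptophan and tyrosine, were called higher on induction only, at 0.15, 0.16 and 0.16, and Cars, for cysteine, was called in neither. A call in 1 comparison and not in the other was not tested as a difference.

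Within lines the counts were smaller. On knockdown 17 of the 37 were called higher and 1 lower in pEx5 (17.9% and 17.3% of all genes tested; 25 of the 37 at an unadjusted p under 0.05, and 21 higher and 3 lower with voom weights in limma), and 25 higher and 0 lower in mEx5 (15.4% and 15.8% of all genes; 30 of the 37 at an unadjusted p under 0.05, and 28 higher and 2 lower with voom weights in limma). Of the 10363 genes tested, 4621 in pEx5 and 4424 in mEx5 had an unadjusted p under 0.05 on knockdown. All these shares are from the main fit, and none is given here for voom weights. Without pEx5 knockdown B the pEx5 knockdown count was 11 in place of 18. On induction 11 were called higher and 0 lower in pEx5 (10.3% and 6.48% of all genes; 19 at an unadjusted p under 0.05, and 13 higher and 2 lower with voom weights in limma), and 13 higher and 1 lower, Pycr1, in mEx5 (11% and 9.30% of all genes; 21 at an unadjusted p under 0.05, and 20 higher and 1 lower with voom weights in limma). Of the 10363 genes tested, 3307 in pEx5 and 3621 in mEx5 had an unadjusted p under 0.05 on induction. The induction count was 6 in pEx5 without knockdown A, knockdown B or induction A of that line, and in mEx5 it was 9 without mEx5 knockdown A and 7 without mEx5 induction B. The authors' deposited table, which tested 40 of the 41 genes by line, had 19 higher and 2 lower at FDR under 0.05 on knockdown in pEx5 (15.2% and 17.5% of 18600 genes) and 30 higher and 1 lower in mEx5 (14.0% and 16.8%). On induction the authors' deposited table had 14 higher and 2 lower in pEx5 (10.7% and 8.64%) and 18 higher and 0 lower in mEx5 (10.7% and 9.26%), and there, too, Vldlr was the gene without a test. The 2 lower in pEx5 were Ppp1r15a at -0.28 (FDR 2.6e-04) and Mars at -0.17 (FDR 0.020).

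The signed knockdown change was lower in pEx5 than in mEx5 in all 37 tested genes as a point estimate (Mars at -0.00), with a median difference of -0.16 on the log2 scale, whereas 51.8% of all genes tested lay below 0. None of the 37 differences was called by limma, where 0.00965% of all genes tested (1 gene) was called in either direction. An unadjusted p under 0.05 was found for 13 of the 37, against 616 of the 10363 genes tested. Voom weights and the abundance trend each called 1, Cth, at -0.78 ± 0.09 in pEx5 minus mEx5 (limma adjusted p = 2.82e-04 with the trend, against 0.125 without it). Other large differences were -0.80 ± 0.19 for Atf3, -0.56 ± 0.14 for Slc7a11, -0.49 ± 0.12 for Trib3, -0.45 ± 0.11 for Ddit3 and -0.41 ± 0.07 for Chac1, at limma adjusted p of 0.304 to 0.478. The same control libraries also enter the comparison of the lines without knockdown, where 21 of the 37 were called higher in pEx5 control than in mEx5 control and 0 lower (9.60% and 11.7% of all genes; 28 at an unadjusted p under 0.05), with a median log2 difference of 0.22. Of the 10363 genes tested, 3620 had an unadjusted p under 0.05 in that comparison. There, Atf3 differed by 0.78, Cth by 0.70 and Aldh1l2 by 0.50, while Slc7a11, Trib3, Ddit3 and Chac1 had -0.06, 0.04, 0.22 and 0.14 and were not called.

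On induction, too, none of the 37 differed between lines in its change by limma, where 0.145% of all genes tested (15 genes) did. An unadjusted p under 0.05 was found for 4 of the 37, against 1257 of the 10363 genes tested. Voom weights and the trend each called 1, Aldh1l2, higher in pEx5 by 0.33 ± 0.07 with the trend (limma adjusted p = 0.037, against 0.154 without it). As levels, pEx5 induction had 8 of the 37 higher and 8 lower than mEx5 induction (16.6% and 15.5% of all genes). Both counts were not far above those shares, and a difference between role classes was not tested. Those lower in pEx5 were Trib3, Ppp1r15a, Ddit3, Slc7a11, Eprs, Chac1, Stc2 and Sesn2, with log2 differences of -0.68 to -0.21, which takes in 5 of the 6 effectors tested. Those higher in pEx5 were Pycr1, Aldh1l2, Shmt2, Slc3a2, Aldh18a1, Slc6a9, Slc7a5 and Yars, with log2 differences of 0.18 to 0.85. All but the synthetase Yars belong to the transporters or to the amino acid and one-carbon enzymes.

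Puf60 depletion also changed the splicing of some of these genes, though at no higher share of events than over all events tested. Inclusion was measured as percent spliced in (PSI) from the reads for and against inclusion, and an event was called at a limma adjusted p under 0.05 and a difference of at least 10 PSI points. Of 909 tested events in the 37 genes, 7 in 6 genes were called on knockdown, 6 of them lower and 1 higher, where 1.21% of the 222055 events tested were called. On induction 5 in 4 genes were called, all higher, where 0.502% of all events were called. The knockdown count was thus below the share over all events, and the induction count was near it. The induction count was 2 without pEx5 knockdown B, and 3 without pEx5 knockdown A, either pEx5 induction library, either mEx5 knockdown library or mEx5 induction A. In induction over control 0 of the 909 were called by limma, where 0.0212% of all events were called (47 of 222055), and 2 of the 909 had both an unadjusted p under 0.05 and a difference of 10 points. With precision weights, a test run on 34 events of intermediate inclusion in these genes, limma called 2 in that comparison, a Pycr1 exon at -10.9 points (adjusted p = 4.52e-04) and a Sars intron at 16.9 points (adjusted p = 0.017). Over all genes that test called 724 of 22770 events in induction over control.

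The Ddit3 event was a 48-nt exon. Its PSI was 67.9 and 69.8 in pEx5 induction, 37.1 and 39.5 in pEx5 knockdown and 83.3 and 84.0 in pEx5 control libraries, from at least 1141 reads in each library. In mEx5 it was 84.4 and 85.0 on induction, 46.6 and 45.3 on knockdown and 84.3 and 82.7 in controls. Inclusion returned to the control range in mEx5 induction and stayed below it in pEx5 induction; that difference between lines was not tested. Over both lines PSI fell by 41.5 points on knockdown (limma adjusted p = 2.94e-04) and rose by 34.7 points on induction (adjusted p = 0.002).

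Slc7a11 had a 127-nt exon at 94.1 and 86.4 PSI in pEx5 induction, 51.8 and 60.2 PSI in pEx5 knockdown and 96.5 and 98.3 PSI in pEx5 control libraries. In mEx5 it was at 99.3 and 95.9 PSI on induction, 65.1 and 65.2 PSI on knockdown and 97.8 and 100 PSI in controls. The knockdown libraries were the 4 lowest. PSI fell by 37.6 points on knockdown (limma adjusted p = 0.007) and rose by 33.3 points on induction (adjusted p = 0.045), from 88 to 287 reads per library. The induction call was lost without any 1 of 9 libraries, all but mEx5 induction B and the mEx5 controls (limma adjusted p of 0.068 to 0.121).

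Aldh1l2 had a 235-nt exon at 95.9 and 96.7 PSI in pEx5 induction, 71.4 and 74.1 PSI in pEx5 knockdown and 98.7 and 98.5 PSI in pEx5 control libraries. In mEx5 it was at 97.7 and 97.8 PSI on induction, 75.0 and 76.3 PSI on knockdown and 98.5 and 99.3 PSI in controls. PSI fell by 24.6 points on knockdown (limma adjusted p = 2.11e-04) and rose by 22.8 points on induction (adjusted p = 0.002). As in Ddit3 and Slc7a11, the knockdown libraries of both lines stood apart from all others.

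Cth had a 58-nt exon at 96.0 and 96.1 PSI in pEx5 induction, 77.3 and 85.6 PSI in pEx5 knockdown and 99.1 and 99.5 PSI in pEx5 control libraries. In mEx5 this exon was at 98.5 and 98.5 PSI on induction, 82.5 and 83.4 PSI on knockdown and 100 and 99.0 PSI in controls. It fell by 17.2 points on knockdown (limma adjusted p = 0.002) and rose by 15.1 points on induction (adjusted p = 0.029), a call that was lost without any 1 of the 8 knockdown and induction libraries (limma adjusted p of 0.065 to 0.090). A 132-nt exon of Cth fell by 12.6 points on knockdown and rose by 10.5 points on induction (limma adjusted p of 6.6e-04 and 0.009; without pEx5 knockdown B its induction difference lay under the 10 points needed), with knockdown libraries at 85.0 to 87.8 PSI against 98.2 to 99.2 PSI in controls. The RNA of Cth was nonetheless higher on knockdown than in control in both lines together.

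Pycr1 had a 129-nt exon at 64.2 and 63.4 PSI in pEx5 induction, 51.3 and 51.4 PSI in pEx5 knockdown and 70.2 and 71.5 PSI in pEx5 control libraries. In mEx5 it was at 55.7 and 52.4 PSI on induction, 48.3 and 44.7 PSI on knockdown and 67.4 and 70.2 PSI in controls. It fell by 20.9 points on knockdown (limma adjusted p = 0.008), and its induction difference of 9.99 points was not called (adjusted p = 0.178). The event called higher was a 471-nt intron of Sars, retained at 49.3 and 56.8% in pEx5 induction, 64.1 and 62.0% in pEx5 knockdown and 29.6 and 34.6% in pEx5 control libraries. In mEx5 this intron was retained at 41.0 and 50.0% on induction, 49.4 and 51.8% on knockdown and 40.4 and 25.0% in controls. Its retention rose by 24.5 points on knockdown (limma adjusted p = 0.026), from 63 to 148 reads per library, and the call was lost without any 1 of 7 libraries, namely either pEx5 knockdown, either pEx5 control, either mEx5 knockdown or mEx5 control B (limma adjusted p of 0.054 to 0.080). It was also no longer called when events with constant inclusion were left out, an alternative chosen after seeing the data (adjusted p = 0.053). The authors' deposited table marked the 6 called exons as significant in all 4 comparisons by line, and the Sars intron in pEx5 knockdown only.

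**Figure D4:**
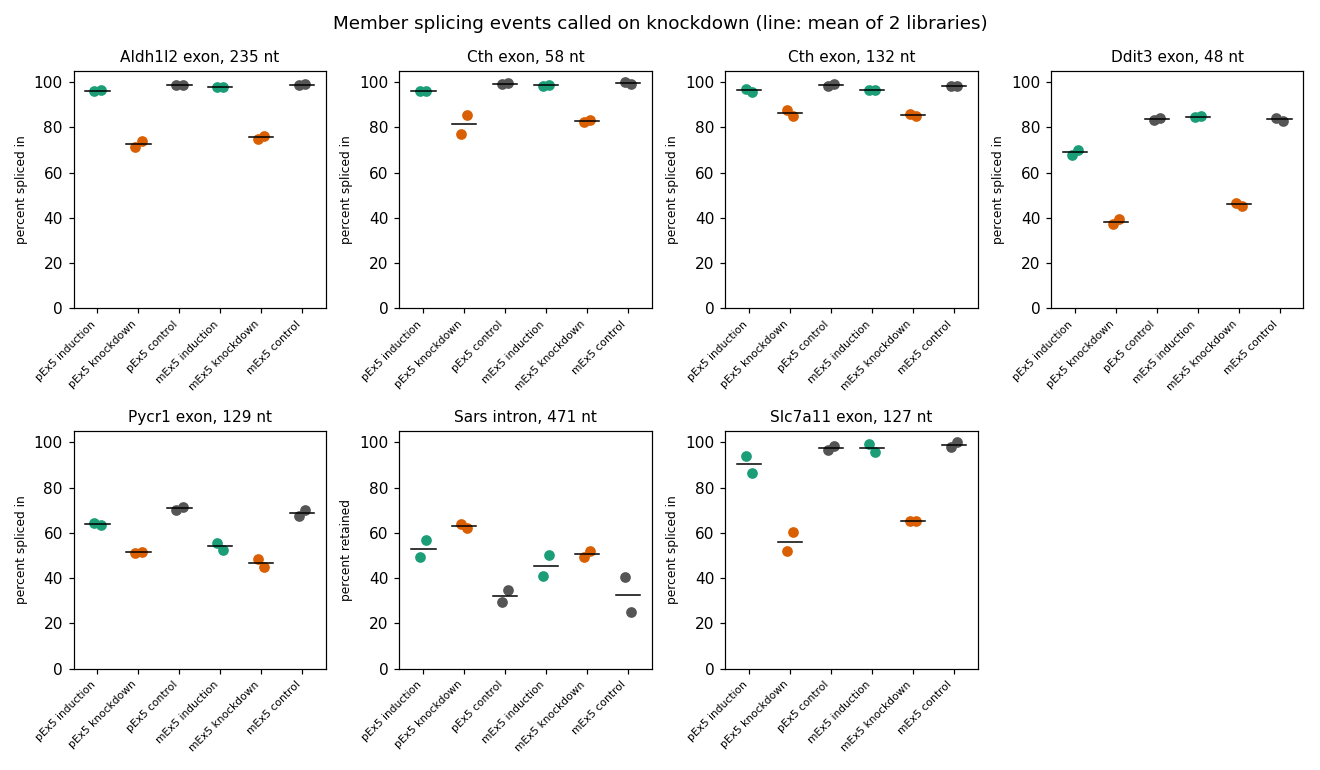
Percent spliced in, or percent retained for the Sars intron, of the 7 events called on knockdown, in each library (points) with the mean of the 2 libraries (line), for induction, knockdown and control of pEx5 and then of mEx5. The Ddit3 exon lies at 37.1 to 46.6 in knockdown libraries and at 82.7 to 84.3 in controls, and the exons of Slc7a11, Aldh1l2 and Cth show the same shape at higher inclusion.

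Related genes outside the 41 were read from 8 lists in the same fit, beside 25.4% higher and 23.2% lower of all genes tested on knockdown, and 17.3% and 15.6% on induction. At an unadjusted p under 0.05 were 5723 of the 10363 genes on knockdown and 4534 on induction. The counts of the kinases, subunits and regulators of eIF2 itself lay near the shares called: on knockdown 3 of 15 tested were called higher and 4 lower (median log2 change 0.01), with Eif2ak2 (PKR) at 0.41 ± 0.05 and Eif2ak4 (GCN2) at -0.47 ± 0.05 (limma adjusted p of 3.93e-04 and 7.73e-05). On induction 3 were called higher and 3 lower, with these 2 kinases at -0.20 ± 0.05 and 0.37 ± 0.05. Other ATF4 or CHOP targets were mostly higher on knockdown, with 8 of 11 called higher and 0 lower (9 at an unadjusted p under 0.05, median 0.50), led by the stress cytokine Gdf15 at 0.93 ± 0.05 and the mitochondrial carboxykinase Pck2 at 0.81 ± 0.04. On induction 5 of these 11 were called higher, led by the angiogenic factor Vegfa at 0.66 ± 0.05, and 2 lower, Sqstm1 at -0.25 ± 0.04 and Pck2 at -0.13 ± 0.04. In induction over control 10 of the 11 were called higher.

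ER folding genes, which answer to ATF6 and XBP1 rather than ATF4, rose on knockdown as well, with 13 of 15 called higher and 0 lower (13 at an unadjusted p under 0.05, median 0.26). On induction 0 were called higher and 11 lower (12 at an unadjusted p under 0.05, median -0.21). Dnajc3, an inhibitor of eIF2 kinases, was at 0.45 ± 0.04 on knockdown and -0.47 ± 0.04 on induction, and the chaperone Hspa5 (BiP) was at -0.38 ± 0.04 on induction. In induction over control 3 of these 15 were called higher and 0 lower (3 at an unadjusted p under 0.05), a share near the 17.2% higher of all genes tested.

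Of the 11 other cytosolic synthetase and scaffold genes, 2 were called higher and 2 lower on knockdown (median -0.01) and 1 higher and 3 lower on induction (median -0.07); in induction over control, too, 1 was called higher and 3 lower. Among these, Farsb was at 0.21 ± 0.04 and Dars at -0.17 ± 0.04 on knockdown. Of the 15 mitochondrial synthetases tested, 2 were called higher and 7 lower on knockdown (median -0.15), with Fars2 at 0.56 ± 0.05 and Nars2 at -0.55 ± 0.08, and 5 higher and 3 lower on induction (median 0.07). In induction over control 1 of these 15 was called higher and 8 lower, with 14 of 15 below 0 and a median of -0.17.

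Other serine, one-carbon and methionine genes had 4 of 12 called higher and 6 lower on knockdown (median -0.15), among them the methylenetetrahydrofolate dehydrogenase Mthfd2l at 1.20 ± 0.11, and 1 higher and 2 lower on induction (median 0.03). Other amino acid enzymes had 3 of 11 higher and 3 lower on knockdown (median 0.07), among them the branched-chain transaminase Bcat2 at 0.45 ± 0.08, and 3 higher and 2 lower on induction (median 0.04). Other transporters had 6 of 11 higher and 1 lower on knockdown (median 0.16) and 3 higher and 1 lower on induction (median 0.08). The 1 lower on knockdown was Slc38a2 (SNAT2), a neutral amino acid carrier, at -0.78 ± 0.05 on knockdown and 0.75 ± 0.05 on induction (limma adjusted p of 7.92e-06 and 3.34e-05). Psat1 took this course by smaller amounts, as did Slc3a2 on junction reads but not in the knockdown fold changes of the authors' deposited table.

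**Figure D5:**
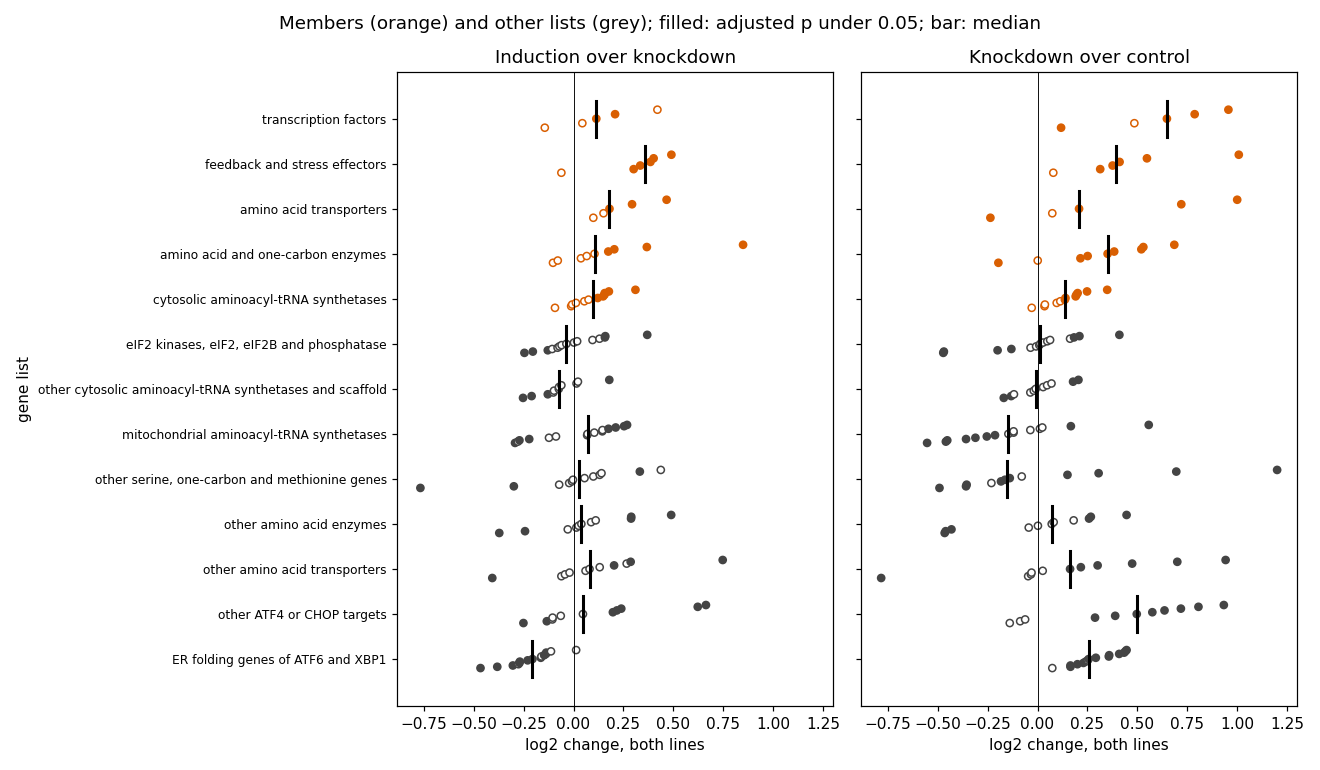
Log2 changes of the tested genes of the 5 role classes (orange) and of 8 other lists (grey) for induction over knockdown and knockdown over control, both lines together, with filled points at an adjusted p under 0.05 and a bar at each median. The ER folding genes lie right of 0 on knockdown (median 0.26) and left of it on induction (median -0.21), while the 5 role classes have medians right of 0 in both panels.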

How the data were processed

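Polyadenylated RNA of 12 libraries was sequenced from stranded libraries, per the labels' protocols. The authors used Salmon 0.14.1 and edgeR with mm10, per the submitters' processing notes. Their deposited expression table gives RPKM per group, log2 fold changes and FDR (an adjusted p-value) by line. The deposited splicing table gives PSI in percent per library, with a quality text that holds the reads behind it, per the file headers; the assembly of its coordinates is not given in the sources used here. Here, junction reads were summed per gene, scaled by the median of ratios, put on a log2 scale with a prior count of 2 reads, and tested with limma 3.58.1 in R 4.3.3 (6 groups, no block, Benjamini-Hochberg over 10363 genes with a mean of 20 reads). Splicing events with at least 10 reads in each library were tested as logits with a pseudocount of 0.5. The prior variance was constant; an abundance trend, and leaving out events with constant inclusion, are alternatives chosen after seeing the data. No batch is given in the labels, nor whether duplicates came from separate transfections, so p-values measure the spread between these libraries. Both tests were run on simulated data, with the same dispersion for all genes and no added spread between libraries for events. That setting is simpler than these libraries, so the runs cannot show the error rates of the tests here. The members and lists were chosen with earlier results of these data known. Named in full are Atf4, Ddit3, Trib3 and Asns, the 2 largest called changes of each role class on knockdown and on induction, and members called against their class. The descriptions of the doxycycline libraries word them as uninduced, and the treatment field was used. Some genes of the other lists are not reported by name here.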

Additional observations from a re-analysis of the deposited data

How the results depend on the processing

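Each group held 2 libraries, so when 1 was left out its partner was assumed to vary like the other groups. Leaving out 1 library gave 27 to 29 members called on knockdown in both lines, 15 to 19 on induction, 31 to 34 in induction over control and 21 to 25 on knockdown in mEx5. Line-specific counts moved more: 11 to 18 on knockdown in pEx5 (11 without pEx5 knockdown B), 6 to 11 on induction in pEx5 (6 without pEx5 knockdown A, knockdown B or induction A) and 7 to 13 in mEx5 (9 without mEx5 knockdown A, 7 without mEx5 induction B), and 0 to 0 for either difference between lines. Voom weights and the abundance trend, the second chosen after seeing the data, each called 1 member, Cth, for the knockdown difference and 1, Aldh1l2, for the induction difference, and with the trend 31, 24 and 34 members were called on knockdown, on induction and in induction over control. The shares of all genes called in these 2 alternatives are not given here. Called events were 6 to 8 on knockdown; on induction they were 2 to 5 (2 without pEx5 knockdown B; 3 without pEx5 knockdown A, either pEx5 induction library, either mEx5 knockdown library or mEx5 induction A), and 8 with precision weights on 34 events of intermediate inclusion. Over all genes, precision weights called 2597 of 22770 events on induction. Same-letter libraries correlated at -0.129 to 0.162 in their deviations from the group means. That cannot show whether libraries with the same letter were handled together, which the labels do not say. With the replicate block 29 members were called on knockdown, 20 on induction and 34 in induction over control, 3 events were called on induction (the Slc7a11 127-nt and Cth 58-nt exons lost theirs, at limma adjusted p of 0.077 and 0.055), 11 members higher and 0 lower on induction in mEx5 (Pycr1 lost its call), and Atf4 lost its induction call (limma adjusted p = 0.051). Over the named members, 819 of 840 alternatives kept the side of the threshold, 19 lost the call and 1 gained it (Nupr1). Signs were compared only where the main fit or the alternative was called. Among those, the sign turned in 1, Ddit3 on induction, at -0.27 without the introns that touch its exon, a choice made after seeing the data. Scaling by total reads moved the median of all genes by between -0.0415 and 0.0323 (log2).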
